A study of Homo sapiens with 8 samples.

Results

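The stretch of human chromosome 16 from position 28000001 to 32000000 of the hg19 build, called 16p11.2 here, held 2075 of the 256141 windows in a table of FAIRE-seq counts (0.81%). Every window that starts in the stretch was included, whatever its level or response. Windows were 150 bp long and started on a grid of 50 bp, and windows separated by no more than 100 bp were merged into regions, which gave 207 regions here of 35741 in all. Neighbouring windows share DNA fragments, so each result is given by region as well as by window. The files name no genes, and an annotation of hg19 was not used here. Regions are therefore given by their positions on chromosome 16, and neither the band name nor the cell type could be checked against genes.

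16p11.2 lies on the short arm close to the centromere and is dense in genes, among them genes for kinases, chromatin regulators, RNA-binding proteins and leukocyte integrins. Blocks of near-identical sequence lie within it. Recombination between them recurrently deletes or duplicates parts of it in people, with links to autism and to body weight. FAIRE recovers the DNA that is not trapped with protein after formaldehyde fixation, so a high FAIRE count marks chromatin with few nucleosomes, as at active promoters and enhancers. AIRE, the autoimmune regulator, works in epithelial cells of the thymic medulla, where it turns on genes that are otherwise restricted to other tissues. Etoposide holds topoisomerase II on DNA after it has cut both strands.

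All libraries came from AIRE-Tet cells, a Tet-On Advanced derivative of the human embryonic kidney line HEK293 that makes human AIRE when doxycycline is given. DoxEtop cells received 1.5 µM doxycycline for 24 h and then 2 µM etoposide for 24 h. Dox cells received 1.5 µM doxycycline, Etop cells 2 µM etoposide for 24 h, and Control cells neither drug. Each of the 4 groups had 2 biological replicates, and all 8 libraries came from cells with the transgene. AIRE induction below therefore means doxycycline given to these cells, and an effect of the drug cannot be told apart from one of AIRE. The time between doxycycline and fixation in Dox cells is not given in the sources used here. The design asks how the openness of chromatin differs with AIRE induction, with etoposide and with their combination.

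Windows in the table were spread unevenly along the stretch. How the windows were chosen is not given, so a part without windows need not be closed chromatin. Whether reads could be placed in such parts was not tested. Of 8 segments of 500 kb, the fifth (30000001 to 30500000) and the sixth (30500001 to 31000000) held 592 and 706 windows in 58 and 71 regions. The first and the last held 38 and 21 windows, and the third, from 29000001 to 29500000, held 0. The longest gap without a window ran from 28986301 to 29606600 (620300 bp), where the median gap between neighbouring regions was 4350 bp. Regions were broad for this table, with a median width of 450 bp against 350 bp in the whole table, and 44 of 207 (21.3%) were wider than 1000 bp, against 8.64% of all regions. Their levels were moderate. Summed over the 8 libraries, a window here had 115 to 603 counts with a median of 182, where the table had a minimum of 111 and a median of 160. The median window had 3.90 CPM here and 3.42 CPM in the table, where CPM is the library's count scaled to its TMM-adjusted window total, averaged over the 8 libraries.

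The most open window, 30759501 to 30759650 in a region of 1250 bp, averaged 12.98 CPM, against 127 CPM for the highest window of the table. It had 9.51 and 15.03 CPM in DoxEtop and 17.4 and 14.8 CPM in Dox, against 9.76 and 11.6 CPM in Etop and 15.4 and 10.3 CPM in Control. The arms with and without AIRE induction overlapped, and the window did not pass the test (log2 fold change 0.26 ± 0.21 SE, edgeR adjusted p = 0.475). None of the top windows of the other 4 most open regions passed either, at 29984851 to 29985000, 30103251 to 30103400, 30064301 to 30064450 and 30661951 to 30662100, with log2 fold changes between -0.27 and 0.56. Their adjusted p was 0.592, 0.335, 0.0998 and 0.492, in that order. At 30064301 to 30064450 the arms did not overlap, with 9.89 to 13.99 CPM in induced cells and 8.04 to 8.79 CPM in the others. At 30103251 to 30103400 they met at 11.6 CPM.

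With AIRE induction, 115 member windows fell and 24 rose, on a comparison of the 4 induced libraries (DoxEtop and Dox) with the 4 others (Etop and Control) that held etoposide as a factor. A call here is an edgeR quasi-likelihood F test with a Benjamini-Hochberg adjusted p below 0.05 over all 256141 windows. The calls made up 6.70% of the members, against 7.44% of the table, with 5.54% of members lower against 6.17% and 1.16% higher against 1.27%. The share of members called was thus near that of the table. The median log2 fold change was 0.02 over all members and 0.04 over the table, while called windows had medians of -1.43 for the losses and 1.17 for the gains. By region, 48 of 207 (23.2%) had a called window, against 20.2% in the table, and 37 had losses only, 9 gains only and 2 both.

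Losses were a larger share of the windows here than elsewhere on the chromosome. On the rest of chromosome 16, 275 of 9251 windows were lower (2.97%) and 159 higher (1.72%), and in its first 4 Mb, at the other end of the short arm, 49 of 2695 were lower (1.82%) and 65 higher (2.41%). The median log2 fold change was 0.14 on the rest of the chromosome and 0.24 in the first 4 Mb. No test was made of these differences between stretches, since their windows are not independent replicates. Among 1294 members selected alike in both arms, with a mean of the arm means of at least 3.42 CPM, 66 were lower (5.10%) and 22 higher (1.70%), against 5.78% and 1.71% of the table's windows selected in that way. That selection was chosen after seeing the data. The authors' table holds only windows of at least 111 summed counts, and column totals were 4489871 to 5305079 in induced libraries and 4568818 to 8275911 in the others. Losses were 75% of the members' calls in this selection and 82.7% of those in all.

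The size of the call set rested in part on single libraries. It was 63 without Control replicate 2, 74 without DoxEtop replicate 1 and 91 without Dox replicate 2. It lay within 1.5 times of 139 when any of the other 5 libraries was left out, up to 168 without Control replicate 1. With limma-voom 12 windows were called, 8 lower and 4 higher, and with DESeq2 123.

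**Figure D1:**
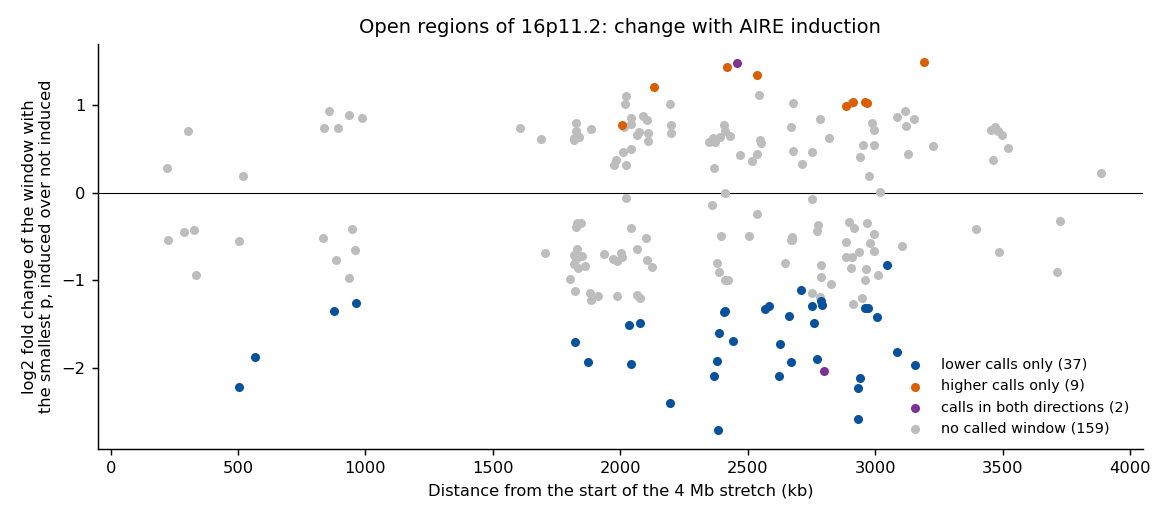
Each point is 1 of the 207 regions, placed by its distance in kb from the start of the 4 Mb stretch, with the log2 fold change (induced over not induced) of its window with the smallest p on the vertical axis. Regions with calls (37 lower only, 9 higher only and 2 both) lie mostly in the fifth and sixth segments of 500 kb. These segments also hold most of the 207 regions, and the third segment holds no region.

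The losses reached from 28503401 to 31086150, and most lay in the fifth and sixth segments, which also held most of the windows. The fifth segment had 42 lower (7.09%) and 14 higher windows of 592, and the sixth 51 lower (7.22%) and 7 higher of 706. Both shares of lower windows were near the 6.17% of the table, and no other segment had more than 4.22%. The sixth segment's windows summed to 3108 ± 131 CPM in induced cells and 3387 ± 166 CPM in the others (SD, n = 4 each). The arms overlapped, with 2962 to 3280 CPM in induced cells and 3172 to 3519 CPM in the others. The fifth segment's windows summed to 2602 ± 57 CPM in induced cells and 2557 ± 96 CPM in the others, also with overlap. In the seventh, from 31000001 to 31500000, the sums were higher in induced cells without overlap, at 943 to 1020 CPM against 895 to 927 CPM. No test was made of these sums. In the 38 regions whose window with the smallest p was lower, here the lead window, its log2 fold change ran from -2.70 to -0.82 with a median of -1.64. The arms did not overlap in 35 of these 38 lead windows. Choosing lead windows by p favours separate arms, and the share among lead windows of the table was not computed. Over all 115 lower windows the arms did not overlap in 91 (79.1%), against 73.6% of all lower windows of the table. Counting every member, called or not, the arms did not overlap in 162 windows that were lower (7.81%, against 7.49% of the table) and in 128 that were higher (6.17%, against 4.98%). Etop replicate 1 was the highest library in 55 of the 115, and DoxEtop replicate 1 the lowest in 50.

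The lead window with the lowest log2 fold change, 30381951 to 30382100, lay in the widest region of the stretch (30380301 to 30382750, 2450 bp, 41 windows). It had 0.560 and 2.18 CPM in DoxEtop and 0.763 and 0.662 CPM in Dox, against 6.17 and 6.14 CPM in Etop and 3.13 and 12.3 CPM in Control, which is 3 to 11 counts in induced libraries and 26 to 82 in the others. Every induced library was below every other library, although Control replicate 2 was far above Control replicate 1. The log2 fold change was -2.70 ± 0.42 (SE; edgeR adjusted p = 1.22e-05), with means of 1.04 ± 0.762 CPM in induced cells and 6.93 ± 3.84 CPM in the others (SD, n = 4 each). The loss spanned 8 called windows between 30381901 and 30382500, and the other 33 windows of the region did not pass the test.

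Of the 8 losses named by rule, 3 lay close together near the end of the sixth segment. Window 30933751 to 30933900 had 0.373 and 1.38 CPM in DoxEtop and 3.24 and 0.441 CPM in Dox, against 9.91 and 9.43 CPM in Etop and 5.66 and 8.69 CPM in Control. Dox replicate 1 was the highest induced library and still lay below all 4 others, and the log2 fold change was -2.58 ± 0.38 (edgeR adjusted p = 3.67e-06). It belonged to a region of 1300 bp in which 6 of 21 windows were lower. The neighbouring region 30932951 to 30933350 was lower along its whole length, with all 6 windows called. Its lead window had 0.933 and 1.78 CPM in DoxEtop and 1.53 and 1.76 CPM in Dox, against 10.1 and 4.82 CPM in Etop and 6.74 and 6.29 CPM in Control. The arms were well apart and the log2 fold change was -2.22 ± 0.36 (edgeR adjusted p = 1.73e-05). Another region of this group, 30939101 to 30940050, had 5 of 14 windows lower, and its lead window averaged 1.37 ± 0.513 CPM in induced cells and 6.08 ± 1.3 CPM in the others (SD, n = 4 each; log2 fold change -2.11 ± 0.38, edgeR adjusted p = 8.67e-05).

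The other 4 losses named by rule were spread over the stretch. Window 30194001 to 30194150 had 0.187 and 1.19 CPM in DoxEtop and 1.14 and 1.10 CPM in Dox, against 7.32 and 6.58 CPM in Etop and 2.77 and 3.59 CPM in Control. Both Etop libraries were above both Control libraries, and the log2 fold change over both backgrounds was -2.39 ± 0.46 (edgeR adjusted p = 0.000289). Window 30621701 to 30621850 had 2.61 and 2.97 CPM in DoxEtop and 1.33 and 2.21 CPM in Dox, against 9.48 and 8.33 CPM in Etop and 5.54 and 15.6 CPM in Control. Its arms did not overlap either (log2 fold change -2.09 ± 0.32, edgeR adjusted p = 6.86e-06), and 7 of the 23 windows of its region were lower. Window 30366751 to 30366900 ranged from 0.662 to 2.18 CPM in induced cells and from 3.37 to 8.39 CPM in the others (log2 fold change -2.09 ± 0.41, edgeR adjusted p = 0.000396). Window 28503401 to 28503550, a region by itself, ranged from 0.381 to 1.98 CPM in induced cells and from 3.13 to 6.59 CPM in the others (log2 fold change -2.21 ± 0.45, edgeR adjusted p = 0.000537). All 8 named losses kept their call when any 1 library was left out, and none kept it with limma-voom.

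**Figure D2:**
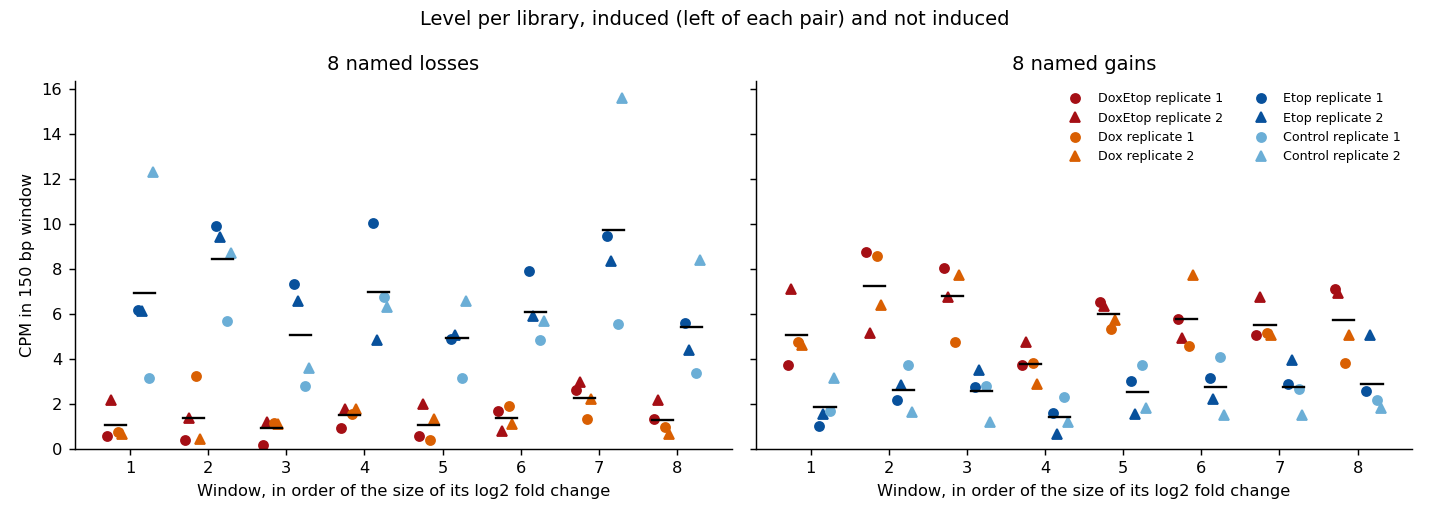
Points are the CPM of each of the 8 libraries in the lead windows of the 8 named losses (left) and the 8 named gains (right), with the 4 induced libraries left of the 4 others in each pair and bars at the means of each arm. The arms do not overlap in any of the 8 losses, and they overlap in 1 of the 8 gains, the last one. The windows were chosen on these same libraries, so this is no test.

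The gains were fewer and smaller. The 10 regions with a higher lead window had log2 fold changes of 0.77 to 1.48 with a median of 1.11. The arms did not overlap in 7 of these lead windows, which were likewise chosen by p. Over all 24 higher windows the arms did not overlap in 15 (62.5%), against 76.6% of the table's higher windows. Window 31190851 to 31191000, in a region of 1550 bp, had 3.73 and 7.12 CPM in DoxEtop and 4.77 and 4.63 CPM in Dox, against 1.01 and 1.53 CPM in Etop and 1.69 and 3.15 CPM in Control. All induced libraries were above all others (log2 fold change 1.48 ± 0.38, edgeR adjusted p = 0.00895). Window 30418951 to 30419100 had 8.02 and 6.73 CPM in DoxEtop and 4.77 and 7.72 CPM in Dox, against 2.73 and 3.51 CPM in Etop and 2.77 and 1.20 CPM in Control. The arms did not overlap (log2 fold change 1.42 ± 0.32, edgeR adjusted p = 0.00213). Here the gain spanned 6 neighbouring windows from 30418851 to 30419250, while the windows at the start of the same region did not pass the test.

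The remaining named gains were windows 30456801 to 30456950, described with its region below, 30537851 to 30538000, 30134601 to 30134750, 30960701 to 30960850, 30913651 to 30913800 and 30969301 to 30969450. The last 5 of these had log2 fold changes of 1.02 to 1.34 and edgeR adjusted p-values of 0.0149 to 0.0431. Their induced means lay between 3.79 and 5.98 CPM and those of the others between 1.43 and 2.90 CPM. Window 30969301 to 30969450 was the only named gain whose arms overlapped, with 3.81 to 7.09 CPM in induced cells and 1.80 to 5.04 CPM in the others. Between 1 and 5 of the 8 named gains lost their call when 1 library was left out, and 6 of 8 lost it with limma-voom.

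A gain and a loss lay within the same region in 2 regions, which is 0.966% of the regions here and 0.61% of those in the table. In region 30456651 to 30457450, 5 windows from 30456701 to 30457050 were higher and 5 from 30457101 to 30457450 were lower. The higher lead window, 30456801 to 30456950, had 8.77 and 5.14 CPM in DoxEtop and 8.58 and 6.396 CPM in Dox, against 2.15 and 2.85 CPM in Etop and 3.73 and 1.65 CPM in Control. At the end of the region, window 30457301 to 30457450 had 0.187 and 3.56 CPM in DoxEtop and 0.572 and 0.882 CPM in Dox, against 9.05 and 3.51 CPM in Etop and 2.65 and 4.79 CPM in Control. The induced libraries were all above the others in the first window (log2 fold change 1.47 ± 0.31, edgeR adjusted p = 0.00116). In the second, DoxEtop replicate 2 overlapped Etop replicate 2 and Control replicate 1 (log2 fold change -1.998 ± 0.46, edgeR adjusted p = 0.00264). Without induction the mean was thus lower in the first of these windows than in the second, at 2.60 ± 0.904 CPM and 4.999 ± 2.84 CPM. With induction it was higher, at 7.22 ± 1.76 CPM and 1.3 ± 1.53 CPM (SD, n = 4 each). Control replicate 1 went against its arm's means, with 3.73 CPM in the first window and 2.65 CPM in the second. Both windows were chosen by their calls, so this crossing is no test.

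In region 30797601 to 30799100 the 2 higher windows lay inside, from 30798201 to 30798400, and the 2 lower ones at its end, from 30798901 to 30799100. The last window had 0.933 and 1.58 CPM in DoxEtop and 0.954 and 0.662 CPM in Dox, against 5.46 and 4.17 CPM in Etop and 2.41 and 5.09 CPM in Control. Every induced library was below every other library (log2 fold change -2.03 ± 0.44, edgeR adjusted p = 0.00138). At 30798251 to 30798400 the induced libraries had 4.58 to 5.34 CPM and the others 1.69 to 3.45 CPM, without overlap (log2 fold change 1.13 ± 0.36, edgeR adjusted p = 0.0384). The tallest part of the region, between these flanks, did not pass the test.

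**Figure D3:**
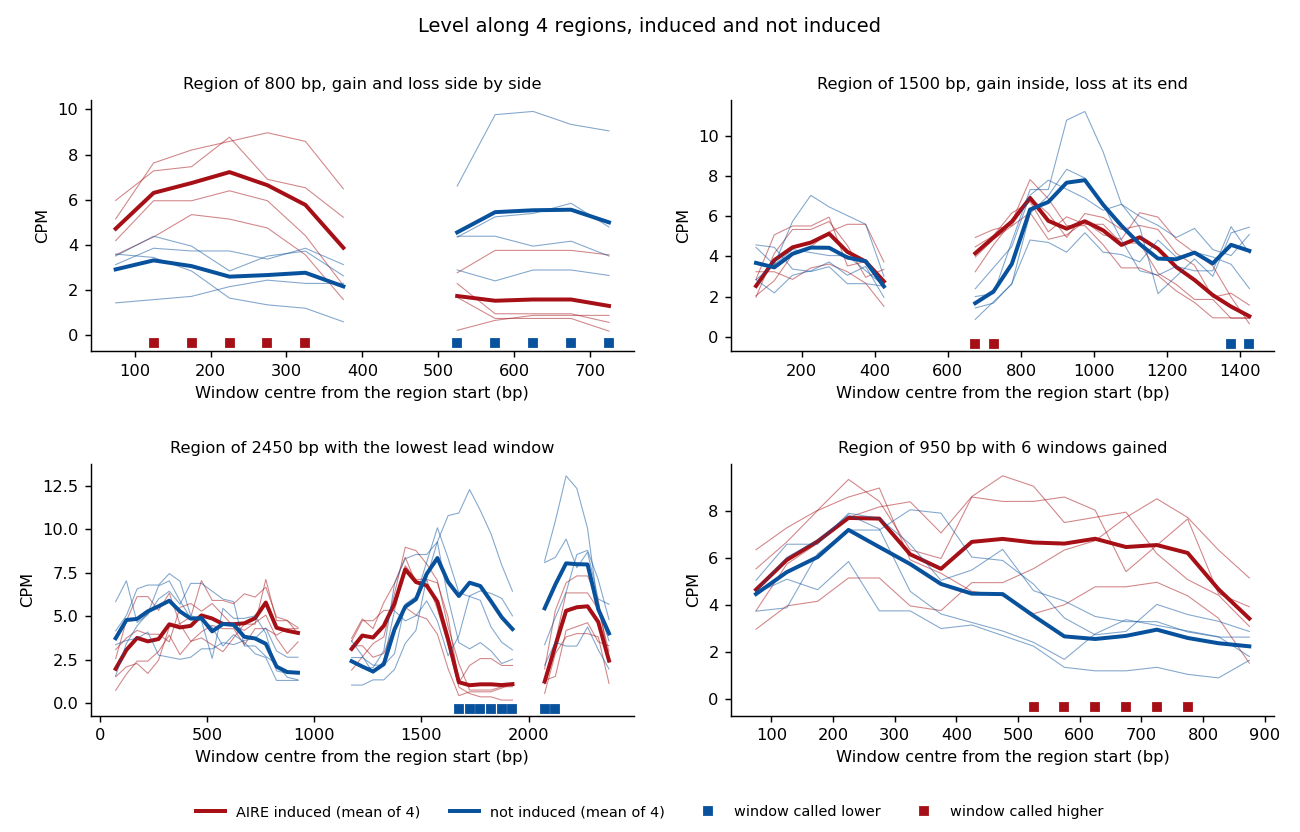
CPM along 4 regions, by distance of the window centre from the region start in bp. Thin lines are the 8 libraries and thick lines the means of the 4 induced and the 4 other libraries, with breaks where no window was in the table and squares below marking windows called lower or higher. In the 800 bp region the means cross between its higher and its lower part, in the 1500 bp region they separate at the flanks of the peak, and in the 2450 bp region the induced mean falls to about 1 CPM over 1 stretch only.

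Losses often took part of a region. Only 5 regions were lower in all their windows, and these had 1 to 6 windows each. In regions wider than 1000 bp, 23 of 73 lower windows (31.5%) lay within 150 bp of an edge of their region, against 22.9% of all 1104 windows of those regions. For higher windows it was 1 of 10 (10.0%). In the table the same shares were 35.3% of lower, 7.88% of higher and 24.4% of all windows. The median level, as a share of the highest window of the region, was 47.0% for lower windows, 52.7% for higher windows and 58.2% for all windows here. In the table it was 53.1%, 68.04% and 63.7%, in that order. Regions with losses only had a median width of 1200 bp, regions with gains only 1450 bp and regions without a call 350 bp. Any 1 called window makes a region count as called, which favours wide regions. These widths are therefore not read as a trait of the changes. In the table the share of lower windows was greatest in the narrowest regions, at 9.93% up to 300 bp and 6.87% over 2000 bp. Here it was 5.10% up to 300 bp and 9.38% over 2000 bp, where 18 of 192 windows in 5 regions were lower.

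Some regions with losses were close neighbours. With regions that had a lower window linked at distances of up to 10 kb, a distance chosen after seeing the data, 3 groups held 3 such regions each. The median gap between any neighbouring regions here was 4350 bp, and the linking was not run over the table. These groups are therefore not read as a clustering of losses. From 30379751 to 30387350, all 3 regions present had lower windows, 13 of 46 in all. From 30932951 to 30940050, which holds the named losses of the sixth segment's end, it was 3 of 5 regions and 17 of 41 windows. From 30786201 to 30799100 it was 3 of 5 regions and 5 of 53 windows. Opposite calls could also be neighbours: region 30959201 to 30959950 had 4 lower windows of 11 and the next region, 30960151 to 30960950, 1 higher window of 14, a pair chosen after its values were seen.

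AIRE induction was then compared in each background on its own, with 2 libraries against 2 and the spread shared over all 4 groups. Without etoposide, Dox against Control, 18 member windows were lower and 1 higher in 9 regions. That is 0.916% of members, against 0.864% of the table, where 0.848% were lower and 0.0156% higher. With etoposide, DoxEtop against Etop, 38 were lower and 6 higher in 18 regions, 2.12% of members against 2.88% of the table, where 2.43% were lower and 0.45% higher. The comparisons share no library, and 11 windows in 4 regions were lower in both, which is 61.1% of those lower in Dox and 28.9% of those lower in DoxEtop. All 38 windows lower in DoxEtop also had a negative log2 fold change in Dox against Control, and all 18 lower in Dox had one in DoxEtop against Etop. Of the 6 higher in DoxEtop, 3 were above 0 in Dox against Control. The matching shares among called windows of the table were not computed. This agreement of called windows is therefore not read as a trait of the stretch. Over all members, 69.1% had the same sign in both comparisons, against 67.3% of the table.

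Both counts rested on single libraries. For Dox against Control the count of 19 became 34 without Control replicate 1, 32 without Etop replicate 2, and 0 without Control replicate 2, Dox replicate 1 or Dox replicate 2. For DoxEtop against Etop the count of 44 became 96 without Etop replicate 2, 8 without Etop replicate 1 and 0 without DoxEtop replicate 1. With DESeq2 they were 1 and 17, and with limma-voom 0 and 0.

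The lowest lead window in Dox against Control was again 30381951 to 30382100, with 0.763 and 0.662 CPM in Dox and 3.13 and 12.3 CPM in Control (log2 fold change -3.37 ± 0.64, edgeR adjusted p = 0.00355). The lead windows 30933651 to 30933800 and 30366751 to 30366900 followed, with log2 fold changes of -3.30 ± 0.70 and -2.80 ± 0.62 (edgeR adjusted p = 0.00963 and 0.0127). The single gain was at 30418901 to 30419050, with 4.00 and 7.50 CPM in Dox and 1.69 and 1.35 CPM in Control (log2 fold change 1.89 ± 0.48, edgeR adjusted p = 0.0385). The groups did not overlap in any of these 4 windows.

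In DoxEtop against Etop, with 1 lead window taken per region, the lowest lead windows were 30933751 to 30933900, 30194001 to 30194150 and 30773351 to 30773500. Window 30933751 to 30933900 had 0.373 and 1.38 CPM in DoxEtop and 9.91 and 9.43 CPM in Etop (log2 fold change -3.45 ± 0.56, edgeR adjusted p = 0.000293). Window 30773351 to 30773500 had 1.68 and 2.37 CPM in DoxEtop and 13.1 and 10.96 CPM in Etop (log2 fold change -2.57 ± 0.43, edgeR adjusted p = 0.000441). In both the groups stood far apart. The highest lead windows were 31190851 to 31191000, 28936551 to 28936700 and 30007451 to 30007600, with log2 fold changes of 2.11 ± 0.57, 1.55 ± 0.44 and 1.27 ± 0.35 (edgeR adjusted p = 0.0289, 0.0372 and 0.0315). At 30007451 to 30007600, one of the more open windows of the stretch, DoxEtop had 14.4 and 11.1 CPM, Etop 4.16 and 6.58 CPM, Dox 13.9 and 11.25 CPM and Control 12.9 and 6.89 CPM. Here the Etop libraries were the lowest of the 8 and Control replicate 1 lay between the Dox libraries.

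**Figure D4:**
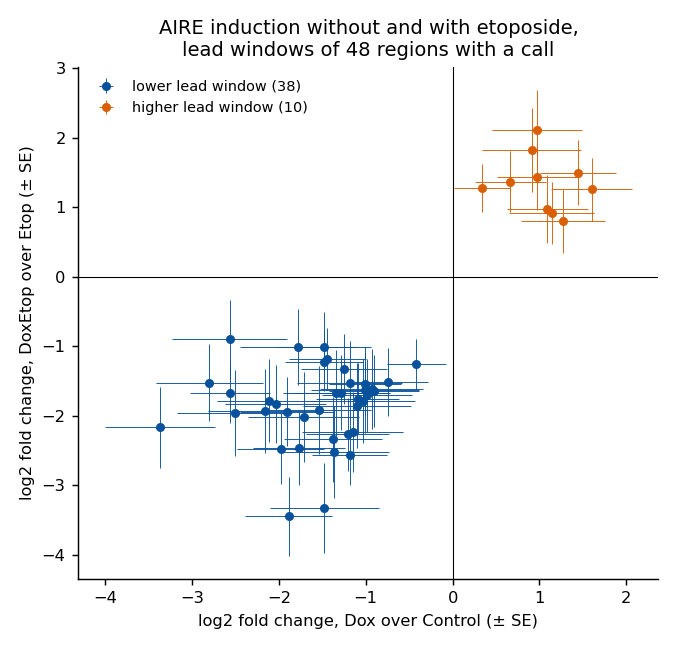
Each point is the lead window of 1 of the 48 regions with a call, with its log2 fold change for Dox over Control on the horizontal axis and for DoxEtop over Etop on the vertical axis, and bars of 1 SE. All 38 lower and all 10 higher lead windows keep their sign on both axes. The windows were chosen on all 8 libraries, so this shows their sizes and is no test of direction.

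Cells with both drugs were also set against untreated cells. In DoxEtop against Control, 19 member windows were lower and 7 higher in 11 regions, 1.25% of members against 1.64% of the table, where 1.48% were lower and 0.154% higher. This comparison shares its DoxEtop libraries and its Control libraries with those above. The lowest lead windows were 30933751 to 30933900, 30381901 to 30382050 and 31085451 to 31085600, with log2 fold changes of -3.01 ± 0.57, -2.73 ± 0.60 and -2.23 ± 0.61 (edgeR adjusted p = 0.00292, 0.00937 and 0.0396). The highest lead windows were 30418901 to 30419050, 30988951 to 30989100 and 30969301 to 30969450, with log2 fold changes of 2.27 ± 0.47, 1.95 ± 0.52 and 1.80 ± 0.47 (edgeR adjusted p = 0.00592, 0.0348 and 0.0291). The count of 26 became 43 without Etop replicate 1, 48 without Etop replicate 2, and 0 without Control replicate 2 or DoxEtop replicate 1. DESeq2 called 2 and limma-voom 0.

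Whether the response to induction differed with etoposide was tested by the interaction of both treatments. None of the 2075 members passed with edgeR (0% of the table passed), and no adjusted p was below 0.99999. An unadjusted p below 0.05 was found in 66 members (3.18%), a smaller share than in the table (4.14%). None passed with DESeq2 or limma-voom. The smallest p was in region 30772501 to 30774000, which had calls in both directions in DoxEtop against Etop. Its first 3 windows were higher there, with log2 fold changes of 2.55 ± 0.64, 2.45 ± 0.57 and 1.70 ± 0.50, and 3 windows from 30773301 to 30773550 were lower, with -1.997 ± 0.42, -2.57 ± 0.43 and -1.51 ± 0.38. At 30772551 to 30772700 the counts were 27 and 39 in DoxEtop and 6 and 7 in Etop, against 23 and 8 in Dox and 33 and 20 in Control. Both DoxEtop libraries were above both Etop libraries, while Dox and Control overlapped, and the interaction was 2.61 ± 0.77 on the log2 scale (edgeR adjusted p = 0.99999). In the other window with the smallest interaction p, 30669701 to 30669850, the levels were 4.66 and 4.75 CPM in DoxEtop, 10.5 and 8.33 CPM in Etop, 10.7 and 8.38 CPM in Dox and 6.26 and 6.29 CPM in Control. DoxEtop was below Etop there and Dox above Control (interaction -1.61 ± 0.50 on the log2 scale, edgeR adjusted p = 0.99999).

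No member was called for etoposide, and none was in the table (0%). For the main effect over both induction states, 119 members (5.73%, against 5.83% of the table) had an unadjusted p below 0.05 with edgeR. Of these 83 were higher, and the smallest adjusted p was 0.639. For Etop against Control it was 101 members (4.87%, against 5.57%) and for DoxEtop against Dox 67 (3.23%, against 4.26%). Their smallest adjusted p-values were 0.863 and 0.99989. In each comparison the share of members was below that of the table. DESeq2 and limma-voom called 0 members in each of the 3 comparisons. The window with the smallest p, 30988951 to 30989100, had 6.53 and 5.54 CPM in DoxEtop and 4.59 and 3.29 CPM in Etop, against 1.72 and 3.09 CPM in Dox and 1.325 and 1.80 CPM in Control. All 4 libraries with etoposide were above the 4 without (log2 fold change 1.35 ± 0.37, edgeR adjusted p = 0.639). In window 30411651 to 30411800 the arms overlapped, with 4.82 to 12.3 CPM with etoposide and 3.25 to 5.15 CPM without (log2 fold change 1.02 ± 0.28, edgeR adjusted p = 0.639). Region 30006451 to 30008000 held a window lower in Etop, 30007551 to 30007700, with 2.01 and 4.60 CPM in Etop and 8.43 and 7.04 CPM in Control (log2 fold change -1.29 ± 0.41, edgeR adjusted p = 0.863).

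Small differences with etoposide leaned upward over the stretch. Windows of 16p11.2 held 0.937% and 0.934% of all window counts in DoxEtop and 0.946% and 0.938% in Etop, against 0.905% and 0.890% in Dox and 0.913% and 0.898% in Control. All 4 libraries with etoposide were above the 4 without, at 0.939 ± 0.0053% and 0.901 ± 0.0099% (SD, n = 4 each). With TMM-scaled totals the windows summed to 9275 to 9693 CPM with etoposide and 8810 to 9127 CPM without, again without overlap. No test was made of this separation. How many other stretches of this length separate as fully was not computed, so it is not read as a trait of the stretch. The median log2 fold change for etoposide was 0.06 here with 56.5% of windows above 0, against a median close to 0 and 49.98% above 0 in the table. The rest of chromosome 16 had a like lean, with a median of 0.06 and 56.3% above 0, and the first 4 Mb had 0.10 and 60.6%. On the rest of the chromosome the shares overlapped over both induction states, with 3.38% to 3.75% in libraries with etoposide and 3.13% to 3.55% in those without. In induced cells they did not overlap there, at 3.75% and 3.65% in DoxEtop and 3.55% and 3.54% in Dox. Without induction, Etop had 3.39% and 3.38%, between the 3.43% and 3.13% of Control. Window by window, the arms did not overlap in 41 members that were higher with etoposide (1.98%, against 1.3% of the table) and in 21 that were lower (1.01%, against 1.29%).

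**Figure D5:**
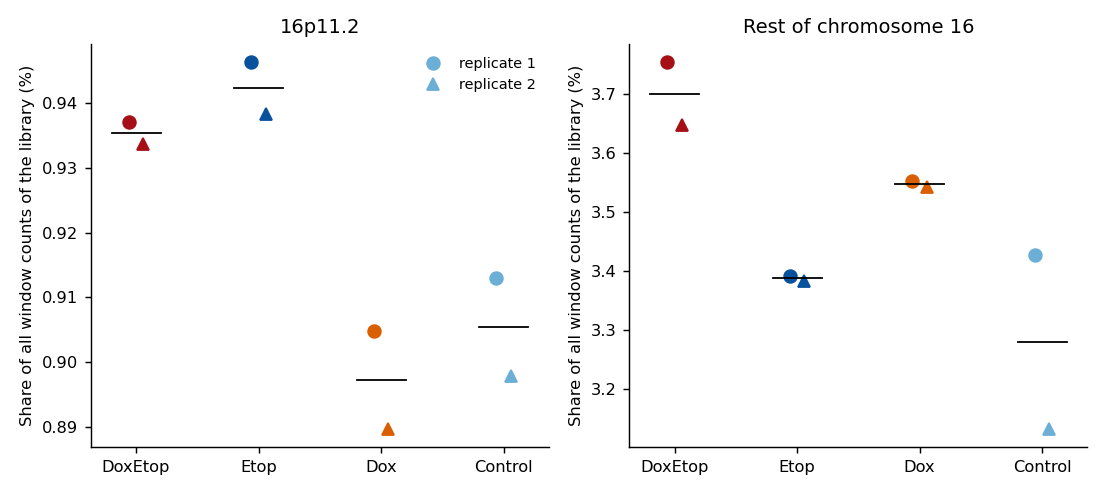
Share of each library's window counts, in percent, that fell in 16p11.2 (left) and on the rest of chromosome 16 (right), by group, with circles and triangles for replicates 1 and 2 and bars at the group means. The vertical axes do not start at 0. In 16p11.2 the DoxEtop and Etop libraries (0.934% to 0.946%) all lie above the Dox and Control libraries (0.890% to 0.913%).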

How the data were processed

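Formaldehyde-fixed AIRE-Tet cells gave the FAIRE-seq libraries, per the labels' protocols. The submitters' processing notes name Trim Galore, Bowtie2, Bowtie and the build hg19. Tool versions, the counter, the choice of windows and the treatment of duplicate reads were not given in the sources used here. Data from input DNA were not analysed here. The deposited values are raw counts per window, 1 column per library, with column totals of 4489871 to 8275911. A fragment can fall in several windows, so these totals are not depths, and a change shared by all windows would not be seen.

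All 256141 windows entered the tests, run in edgeR 4.0.16 under R 4.3.3 (glmQLFit and glmQLFTest, two-sided, TMM scaling, Benjamini-Hochberg at 0.05). filterByExpr removed 0 windows. The main effects came from a model with 1 term per drug (5 residual degrees of freedom, biological coefficient of variation 26.3%), and the pairwise comparisons and the interaction from 1 mean per group (4 residual degrees of freedom). SE is the size of the log2 fold change divided by the square root of F. Simes' p per region was adjusted over 35741 regions: 28 member regions were lower (13.5%, against 12.9% of the table) and 2 higher (0.966%, against 1.42%). Alternatives used limma 3.58.1 and DESeq2 1.42.0.

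Named regions are the 5 with the highest window mean, the 8 lowest and 8 highest lead windows for AIRE induction, and the 3 lowest and 3 highest of the other comparisons, or the 2 with the smallest p where none was called. The members, rules and alternatives were chosen with earlier results of these data known. Replicates of a group differed by more than sampling noise (a chi-square of 1.83 to 3.10 per degree of freedom). The procedure was tested on simulated counts.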

Additional observations from a re-analysis of the deposited data

Results flagged for a closer look

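In 5 of the 42 arm values of named windows tested, 1 library stood apart from the other 3 of its arm by Dixon's criterion for 4 values, which chance does for about 1 group in 20. Among induced libraries, DoxEtop replicate 1 had 18.66 CPM at 29984851 to 29985000, where the others had 10.68 to 11.25 CPM. It had 0.1866 CPM at 30194001 to 30194150, where the others had 1.103 to 1.187 CPM. DoxEtop replicate 2 had 2.176 CPM at 30381951 to 30382100, where the others had 0.5597 to 0.7628 CPM, and 6.725 CPM at 30913651 to 30913800, where the others had 5.037 to 5.149 CPM. Among libraries without induction, Etop replicate 1 had 8.04 CPM at 30064301 to 30064450, where the others had 8.688 to 8.79 CPM. DoxEtop replicates thus made 4 of the 5.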

How the results depend on the processing

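With DESeq2 the member windows called were 1 for Dox against Control, 17 for DoxEtop against Etop and 2 for DoxEtop against Control. With limma-voom they were 12 for AIRE induction and 0, 0 and 0 for those 3 comparisons. Summing non-overlapping windows gave 18 regions for AIRE induction (12 lower, 6 higher) against 30 by Simes' p, and 26 with a merging gap of 500 bp. Selecting windows alike in both arms left 88 calls. With 1 library left out, the counts ran from 63 to 168 for AIRE induction, 0 to 34 for Dox against Control, 0 to 96 for DoxEtop against Etop, 0 to 48 for DoxEtop against Control and 0 to 2 for Etop against Control. They stayed at 0 for the etoposide main effect, DoxEtop against Dox and the interaction, and the members' median log2 fold change for AIRE induction ran from -0.001178 to 0.02522. Where a group kept 1 library, it was assumed to vary like the others. At 29984851 the log2 fold change for AIRE induction reversed to -0.01618 without DoxEtop replicate 1 (edgeR adjusted p = 0.982) and ran up to 0.3733 without Control replicate 1. The cause of these changes was not tested. Other scalings gave 136 to 147 calls for AIRE induction, and a filter at the median summed count 106. The labels link same-numbered replicates by number only, and whether they were prepared together is not given in the sources used here. Correlations of their deviations from group means were -0.0732 to 0.120, which cannot settle that. With the replicate number as a block, 11 windows were called for Dox against Control and 136 for AIRE induction. Windows had 115 to 603 counts over 8 libraries, and the smallest change that could be detected was not measured.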
